A study of Arabidopsis thaliana with 22 samples.

Results

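The comparison described here asks what continuous red light does to the transcripts of an Arabidopsis thaliana seedling that has none of its phytochromes. It rests on 6 of the 22 Affymetrix ATH1 arrays of the series, 3 of phyABCDE seedlings grown under red light and 3 of phyABCDE seedlings grown in darkness, chosen by genotype and light condition from the sample labels. All 22 arrays hold RNA of whole seedlings of the Landsberg erecta (Ler) background, 4 days old. Before growth, seeds had spent 4 days in the cold and dark and had then received 3 h of white light, in every group, the dark ones included.

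In the quintuple mutant phyABCDE, phytochromes A, B, C, D and E are all missing. Its red-light group, R50, grew for 4 days under continuous red light at an irradiance of 50 µmol m-2 s-1, and its dark group for the same time without light. Another group of phyABCDE, DR2h, grew in darkness and received 2 h of the same light on day 4 (2 arrays). The quadruple mutant phyABDE, which keeps phytochrome C, was measured in the same R50 and dark conditions (3 arrays each), and wild type served as the reference with 2 R50 and 4 dark arrays. The labels give neither the alleles of the mutants nor a rescued line. Arrays of a group are called biological replicates in the labels, without a word on separate sowings, so p-values measure the spread between these arrays.

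Phytochromes are photoreceptors that red light converts to an active form and far-red light converts back. In seedlings the active form drives the change from dark growth, with a long hypocotyl and closed cotyledons, to light growth, with open green cotyledons, largely by removing transcription factors of the PIF family. Light still reaches other pigments: protochlorophyllide, for example, is reduced to chlorophyllide only in light, by an enzyme that absorbs the light through its substrate, and chlorophyll itself absorbs red light.

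Levels are log2 of the deposited intensity, and a change is the log2 level under R50 minus that in darkness, so 1 is a 2-fold difference. Changes were fitted with limma over all 22 arrays, and a probe set was called at a Benjamini-Hochberg adjusted p under 0.05. Any pair of the 6 arrays correlated at 0.987 to 0.994 across probe sets (a description, since probe sets are no replicates). Probe sets of the phytochrome genes are unnamed here, so the genotype labels were not checked on them. Of the markers of single tissues, 2 of root hairs, 4 of the stomatal lineage and 8 of the seed are named here. Levels of different probe sets cannot be set against each other, so the tissue content was not judged from them.

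Continuous red light raised 2 of 22746 probe sets in phyABCDE and lowered none (0.00879% called). When 1 of the 6 arrays was left out, 1 call remained without dark replicate 2 and none without any of the others. At an unadjusted p under 0.05 there were 829 higher (3.64%) and 462 lower ones (2.03%), together 5.68% of those tested. Arrays of both groups did not overlap at 10.3% of probe sets, with R50 above dark at 6.08% and below it at 4.25%, and 52.2% of all changes were positive. In the same model red light called 33 probe sets in phyABDE (0.145%; 29 higher, 0.127%) and 6245 in wild type (27.5%). The phyABDE count varied with the setting: it was 255 (146 higher and 109 lower) with replicate blocks over 12 arrays, 35 with the block over 16 arrays, 120 (89 higher and 31 lower) with array weights and 13 without dark replicate 3 of phyABCDE, which enters through the shared spread. The difference between the responses of phyABCDE and wild type passed the test for 3906 probe sets (17.2%), of which 2024 responded more positively (8.90%) and 1882 more negatively (8.27%) in phyABCDE. That between phyABCDE and phyABDE passed for none, with 899 at an unadjusted p under 0.05.

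These few calls go with narrow intervals. For 22213 probe sets in phyABCDE, 97.7% of those tested, the 95% interval of the change lay within a 2-fold difference in either direction, against 96.8% in phyABDE and 78.7% in wild type. Many of these are dim, and near background a narrow interval says little about the transcript. In a fit of only the 12498 probe sets with a mean log2 level of at least 5, the intervals reached a median of 0.32 to either side. Over all probe sets this was 0.30. The central 95% of all changes ran from -0.34 to 0.37 in phyABCDE, from -0.45 to 0.47 in phyABDE and from -1.32 to 1.52 in wild type. A change of 2-fold or more was seen at 40 probe sets in phyABCDE, 69 in phyABDE and 2268 in wild type.

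The first of the 2 called probe sets represents AT5G53710, a locus that the annotation used here leaves without a name. Its level was 6.09, 6.02 and 6.06 on the R50 arrays, against 4.82, 4.62 and 4.97 on the dark arrays. All 3 R50 arrays lay above all 3 dark ones, and the change was 1.25 ± 0.19 (SE, limma, adjusted p = 0.0326). Red light also raised it in phyABDE, by 1.01 (adjusted p = 0.0444), and lowered it in wild type (-1.39, adjusted p = 4.87e-05). The phyABCDE response was thus 2.64 more positive than that of wild type (adjusted p = 2.17e-06). After 2 h of red light its 2 arrays read 7.23 and 7.11, above all 3 R50 arrays, and the change against the same 3 dark arrays was 2.37 ± 0.21 (adjusted p = 2.45e-05). The DR2h comparison called 4 probe sets (0.0176%), a count that was 1 without dark replicate 1 or without dark replicate 2, 15 with array weights and 26 with the replicate block over 16 arrays, and it shares those dark arrays with the R50 comparison. The difference between the 2 h and the R50 levels was not tested.

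The other called probe set is annotated to several genes and is therefore not given a name. Its level was 9.83, 9.81 and 10.09 under R50, against 7.70, 8.84 and 8.34 in darkness. The arrays did not overlap, although the dark ones spread over more than the R50 ones, and the change was 1.62 ± 0.23 (limma, adjusted p = 0.0225). It was called in phyABDE as well, with a change of 1.91 (adjusted p = 0.0020), while the wild-type change was 0.62 (adjusted p = 0.0828).

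**Figure D1:**
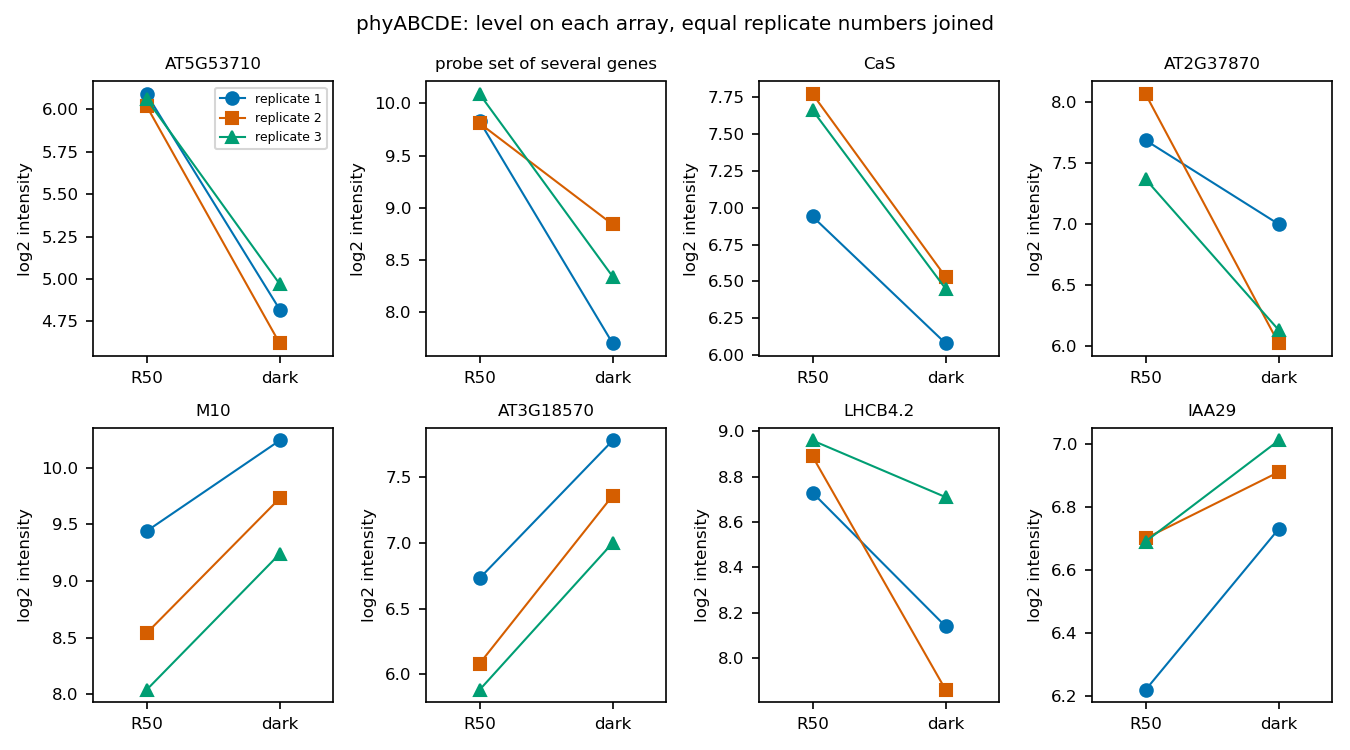
Levels (log2 intensity, vertical axes with a separate range per panel) of 8 probe sets on the 3 R50 arrays (left) and the 3 dark arrays (right) of phyABCDE, with arrays of equal replicate number joined by a line. AT5G53710 and the probe set of several genes passed the unpaired test. In M10 and AT3G18570 the 3 lines run nearly parallel while the replicates sit at different levels.

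Changes were also read within pairs of equal replicate number, although the labels do not say that such arrays were grown or handled together. R50 and dark arrays of equal number deviated together from their group means, with correlations across probe sets of 0.33, 0.12 and 0.25 for replicates 1, 2 and 3. The DR2h arrays did not share this: for replicates 1 and 2 they gave 0.09 and -0.19 against dark arrays of equal number. Against R50 arrays they gave 0.10 and -0.33. A fit of the 6 arrays with the replicate number as a block called 147 probe sets (0.646%), 49 higher (0.215%) and 98 lower (0.431%) under R50, and the 2 unpaired calls were among them. This fit has 2 residual degrees of freedom, and other blocked fits gave other counts. With the 12 R50 and dark arrays of both mutants 60 were called (0.264%), all of them among the 147, and with all 16 mutant arrays none was. Leaving out pair 1, 2 or 3 of the 6 arrays gave 28, 287 and 193 calls, of which 22, 139 and 122 were among the 147. Results below that rest on the paired fit of the 6 arrays are given as such.

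Among the genes called higher in the paired fit was CaS, a thylakoid protein that takes part in calcium signalling. Its level was 6.94, 7.77 and 7.66 under R50, against 6.08, 6.53 and 6.45 in darkness. No R50 array reached down to the dark ones, and the change was 1.10 (adjusted p = 0.625 unpaired, 0.0120 in the 6-array paired fit and 0.0546 in the 12-array one). Red light gave 0.90 in phyABDE and raised the gene in wild type by 2.75 (adjusted p = 3.45e-06), a response that was 1.64 larger than in phyABCDE (adjusted p = 0.0151). ATPMEPCRB, a pectin methylesterase that acts on the cell wall, was the only other riser with a symbol, at 0.71 (adjusted p = 0.0364 in the 6-array paired fit, 0.0931 in the 12-array one and 0.794 unpaired), against 0.56 in phyABDE and 0.69 in wild type, neither of which passed.

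The other risers with 1 gene carry locus codes only. AT2G37870 had levels of 7.69, 8.07 and 7.37 under R50, against 7.00, 6.02 and 6.13 in darkness, a change of 1.33 (paired adjusted p = 0.0165). The groups did not overlap, and its wild-type change had the opposite sign, -1.32. AT2G37670 likewise had 0.79 in phyABCDE (paired adjusted p = 0.0196) and -2.50 in wild type, whereas AT5G55450 had 0.78 (paired adjusted p = 0.0193) and 3.27 in wild type. All 3 differed from wild type in their response (adjusted p = 0.000355, 2.12e-08 and 1.93e-06), and none passed the unpaired fit (adjusted p = 0.368, 0.304 and 0.368). AT5G47330, chosen after its values were seen, read 5.36, 6.40 and 6.16 under R50, against 4.16, 5.08 and 5.42 in darkness. Its replicates overlap between the groups, yet each pair was higher under R50, and the change was 1.08 (paired adjusted p = 0.0120).

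The genes called lower in the paired fit included M10, a seed maturation gene of the late embryogenesis abundant class, whose products accumulate as the embryo dries. Its level was 9.44, 8.54 and 8.04 under R50, against 10.24, 9.73 and 9.24 in darkness. The groups overlap, since R50 replicate 1 lay above dark replicate 3. Still, each R50 array was below the dark array of equal replicate number by 0.80 to 1.20. The change was -1.06 (adjusted p = 0.0120 paired with 6 arrays, 0.0812 with 12 and 0.930 unpaired). Its standard error was 0.14 in the paired fit of 6 arrays and 0.67 in the unpaired fit. The unpaired fit took its spread from all arrays of the series, so these errors differ in the arrays used as well as in the pairing. Wild type had 0.85, from a mean dark level of 4.82 against 9.74 in phyABCDE, and phyABDE -0.84, neither of which passed.

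Other genes lower in every pair, all chosen after their values were seen, were PDF2.1, a plant defensin (-1.06, paired adjusted p = 0.0120), ATOEP16-2, a channel protein of the plastid outer envelope (-0.84, paired adjusted p = 0.0127, but 0.176 in the 12-array fit), and the loci AT3G18570 (-1.15, paired adjusted p = 0.0102) and AT3G22490 (-1.13, paired adjusted p = 0.0120). AT3G18570 read 6.73, 6.08 and 5.88 under R50, against 7.78, 7.36 and 7.00 in darkness. Its groups did not overlap, and it passed both the 6-array and the 12-array paired fit (adjusted p = 0.0102 in each), as did PDF2.1 (0.0340 with 12 arrays) and AT3G22490 (0.0213 with 12 arrays), while none of these genes passed unpaired or with the block over 16 arrays. In wild type these genes pointed both ways: PDF2.1 had 0.83, ATOEP16-2 1.81 and AT3G18570 -0.51, none of which passed. AT2G28490 (-0.93 in phyABCDE, adjusted p = 0.0122 in the 6-array paired fit, 0.118 in the 12-array one and 0.934 unpaired) rose in wild type by 2.27 (adjusted p = 0.0227).

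The 147 probe sets can be looked up in the phyABDE and wild-type arrays, none of which entered the 6-array fit. In phyABDE 48 of the 49 risers had a positive change (98.0%, against 51.9% of all probe sets), with a median of 0.75, and 7 of them were called higher (0.127% of all). Of the 98 probe sets lower in phyABCDE, 91 had a negative change in phyABDE (92.9%, against 48.1% of all), with a median of -0.59, and none was called. Wild type differed by direction. There 32 of the 49 risers were positive (65.3%, against 47.5% of all), with a median of 0.81, and 24 were called higher and 9 lower, against 13.7% and 13.8% of all probe sets. Of the 98 lower ones only 24 were negative in wild type (24.5%, against 52.5% of all), with a median of 0.39, and 1 was called lower and 3 higher, fewer than those shares in both directions. The mean level of these 98 was 3.84 to 4.36 on the dark wild-type arrays, against 7.62 to 8.34 on those of phyABCDE. Whether such low levels kept falls in wild type from showing was not tested.

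**Figure D2:**
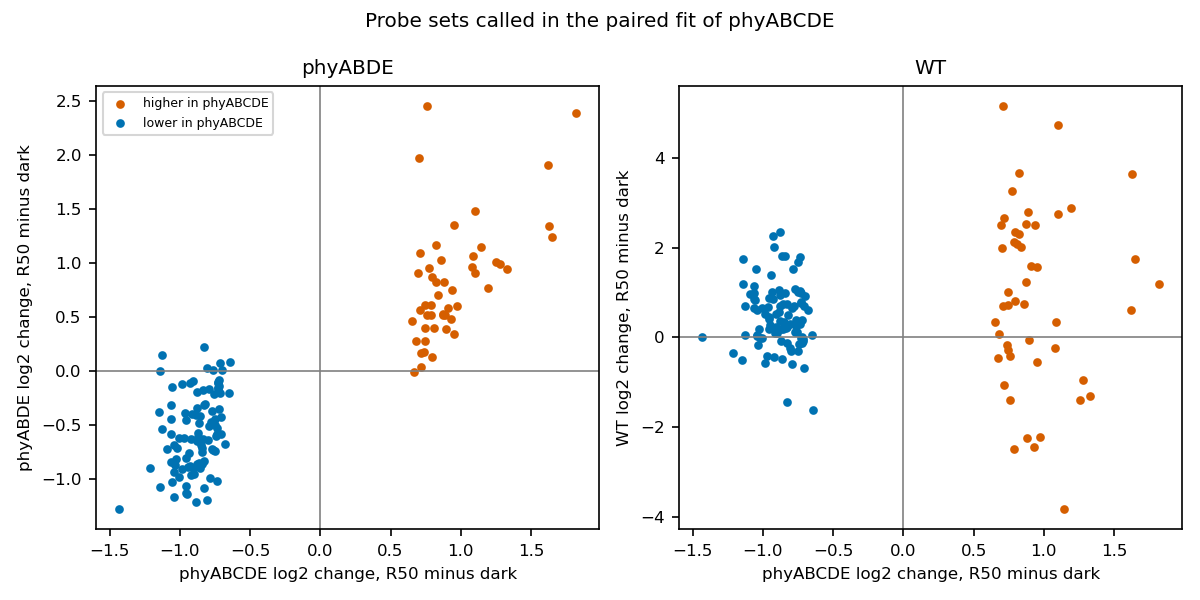
Change under red light of the 147 probe sets called in the 6-array paired fit, in phyABCDE (horizontal axes, log2) and in phyABDE (left, vertical axis, log2) or wild type (right). Most points lie in 2 opposite quadrants for phyABDE (48 of the 49 higher and 91 of the 98 lower ones), and they scatter over both signs for wild type.

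The 98 probe sets that were lower were set beside the seed maturation genes, which mark embryo tissue. M10 belongs to both. The mean level of the 98 was 7.49, 6.88 and 6.84 under R50, against 8.34, 7.91 and 7.62 in darkness. That of the 8 seed maturation genes measured was 10.22, 9.72 and 9.74, against 10.66, 10.43 and 10.22. The 98 were chosen as lower under R50 on these 6 arrays, so their fall there follows from the choice. In phyABDE replicate 1, where the seed genes were low (6.79 under R50 and 7.89 in darkness, against 8.97 to 9.91 on the other R50 and dark arrays), the 98 probe sets were low too (4.57 and 5.42, against 6.39 to 7.28). The part of embryo tissue in these changes was not tested. In whole seedlings, fewer cells of a type and less RNA per cell cannot be told apart.

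Of 42 seed maturation genes on the list, 8 had a named probe set. All 8 had a change below 0 in phyABCDE, and 7 were lower under R50 in each of the 3 pairs, against 12.1% of all probe sets. Their median change was -0.47 (0.01 over all probe sets), and the median within pairs was -0.47, -0.53 and -0.51. LEA, a dehydrin, had -0.79, M17 -0.64, and PAP85, a vicilin-like storage protein, -0.48, none of which passed in any fit. OLEO3, an oleosin of oil bodies, was the exception: it read 9.46, 9.25 and 9.37 under R50, against 9.48, 9.42 and 9.32 in darkness, and its 95% interval spans less than 2-fold in either direction. Only M10 was called, in the paired fit. The list's median was -0.57 in phyABDE and 1.22 in wild type, where OLEO3 alone was called, with -5.06 (adjusted p = 2.26e-14). The list started from lower levels in wild type. Its mean was 4.75 to 6.76 on the dark wild-type arrays, against 10.22 to 10.66 on the dark phyABCDE arrays.

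**Figure D3:**
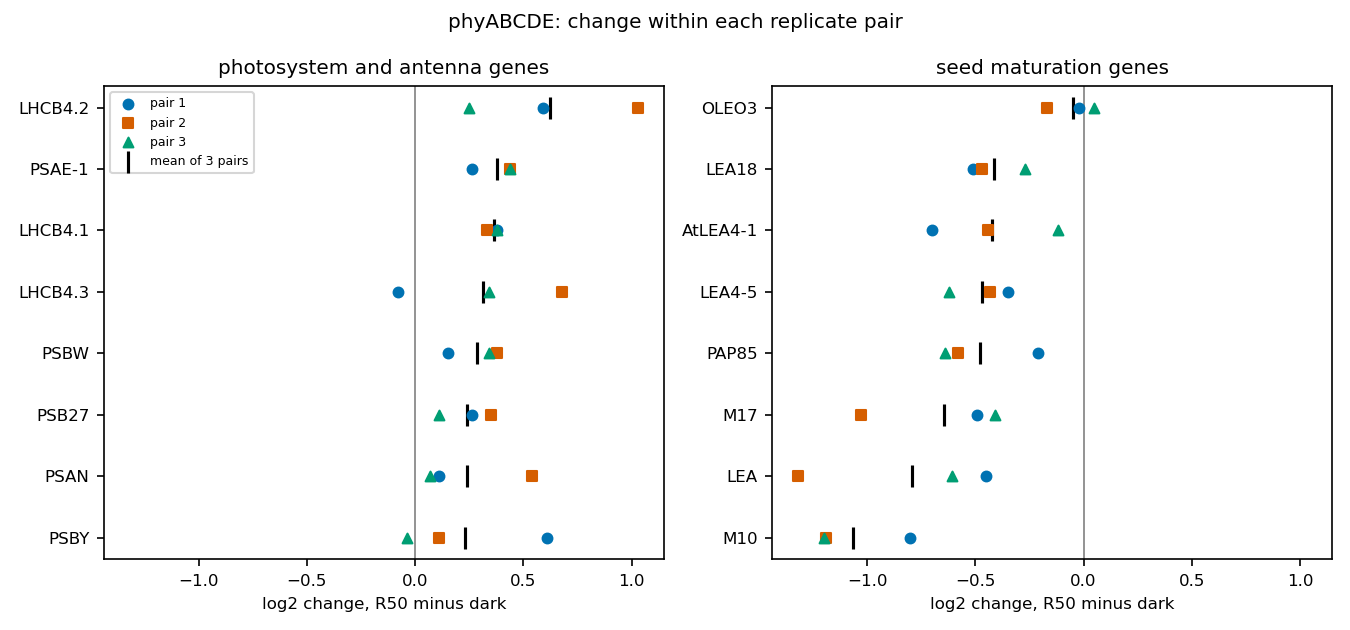
Change within each replicate pair of phyABCDE (horizontal axes, log2, R50 minus dark) for each measured photosystem and antenna gene (left) and seed maturation gene (right). The tick marks the mean of the 3 pairs. The 8 antenna and photosystem genes have means of 0.23 to 0.62, and 7 of the 8 seed genes lie below 0 in every pair.

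Genes of the photosynthetic apparatus that are encoded in the nucleus had small positive changes, none of which passed in either fit. Of 43 photosystem and antenna genes on the list, 8 had a named probe set. All 8 were positive and 6 were higher in each pair, against 15.9% of all probe sets, with a median of 0.30. The light-harvesting protein LHCB4.2 of photosystem II read 8.73, 8.89 and 8.96 under R50, against 8.14, 7.86 and 8.71 in darkness. The groups only just failed to meet, and the change was 0.62 ± 0.27 (limma, adjusted p = 0.846). LHCB4.1 had 0.36, PSAE-1, a subunit of photosystem I, 0.38, and PSBW, a subunit of photosystem II, 0.29. In wild type 7 of the 8 genes rose (13.7% of all probe sets), with a list median of 1.45, and for 7 the phyABCDE response was lower than that of wild type (8.27% of all). A wider list of 15 nuclear thylakoid and photosynthesis genes, which was added later and overlaps with this one, had 14 positive members and a median of 0.23, against 1.38 in wild type. By pair its median was 0.34, 0.23 and 0.09, and with an array or pair left out it ran from 0.12 to 0.33.

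Carbon fixation and chlorophyll synthesis had smaller values, largest in pair 1. The 5 carbon fixation and photorespiration genes were all positive with a median of 0.20, but 0.46, 0.08 and 0.04 in pairs 1, 2 and 3. They ran from TPI, triose phosphate isomerase, at 0.16 to HPR, a photorespiratory reductase, at 0.26. In chlorophyll and haem synthesis 9 of 11 were positive, with a median of 0.17 (0.29, 0.11 and 0.11 by pair). HEME1, uroporphyrinogen decarboxylase, had the smallest p of that list with 8.08, 8.42 and 8.38 under R50, against 7.47, 7.86 and 7.97 in darkness. Its arrays did not overlap, and the change was 0.53 ± 0.15 (limma, adjusted p = 0.637), against 1.34 in wild type. PORB, the protochlorophyllide reductase, had 0.08 in phyABCDE and fell in wild type (-0.43, adjusted p = 0.0131).

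Among chaperones and regulators of chloroplast biogenesis, 10 of 11 were positive with a median of 0.28, and CaS was the only one called, in the paired fit. PIFI, which works with the chloroplast NDH complex, was higher in each pair at 0.53 (paired adjusted p = 0.121). CRR42, an assembly factor of that complex, had 0.42. In wild type 10 of the 11 rose, and for 6 the phyABCDE response was lower than the wild-type one, against 13.7% and 8.27% of all probe sets. After 2 h of red light the medians of these lists in phyABCDE were 0.04 (photosystem and antenna), -0.03 (carbon fixation), 0.00 (chlorophyll and haem) and -0.05 (chaperones and regulators), measured against the same dark arrays.

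Genes encoded in the plastid behaved unlike their nuclear partners. Of 33 photosynthesis genes of the plastid genome 10 were positive, and the median change was -0.09. This median hides a split, for it was 0.65 in pair 1, -0.41 in pair 2 and -0.48 in pair 3. Mean levels of the list were 7.12, 7.30 and 7.27 under R50, against 6.44, 7.88 and 7.81 in darkness, so the dark array of replicate 1 lay below all others and the other 2 above. The photosystem I gene psaB, for example, read 10.13, 10.79 and 10.29 under R50, against 9.54, 11.31 and 11.50 in darkness. Without dark replicate 1 the list's median was -0.65, and without dark replicate 2 it was 0.11. The 21 plastid genes of transcription and translation split the same way (0.59, -0.25 and -0.42 in pairs 1 to 3). For 10 plastid NDH genes the values were 0.35, -0.46 and -0.44. No plastid-encoded gene passed in either fit. As a measure of RNA quality, the signal at the 3' end of the GAPDH control minus that at its 5' end was 0.04, 0.22 and -0.03 (log2) under R50, against 0.18, 0.43 and 0.18 in darkness. For the actin control it was 3.20, 3.56 and 3.40 under R50, against 3.54, 3.80 and 3.26 in darkness. The GAPDH difference was lower under R50 in each pair, the actin one in pairs 1 and 2 and not in pair 3, and their part in the results was not tested.

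Mitochondrion-encoded genes were lower in part. This list is 1 of the 2 added later, with results of these data known. Its median level was 4.03, against 5.44 over all probe sets, and signal near background limits such low levels. Of 16 measured, 11 were negative and 7 were lower in each pair (12.1% of all probe sets). Their median was -0.26, and it was -0.06, -0.59 and -0.24 in pairs 1, 2 and 3, against fitted medians of 0.17 in phyABDE and -0.23 in wild type. The complex I subunit gene nad9 read 3.37, 3.72 and 3.45 under R50, against 4.24, 4.56 and 4.23 in darkness. All R50 arrays lay below all dark ones, and the change was -0.83 ± 0.22 (adjusted p = 0.557 unpaired, 0.0131 in the 6-array paired fit and 0.0705 in the 12-array one). Its response differed from that of wild type by -1.07 (adjusted p = 0.0265). For nad5 the change was -0.62 and for nad6 -0.58, and nad2 had 0.31, none of which passed.

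**Figure D4:**
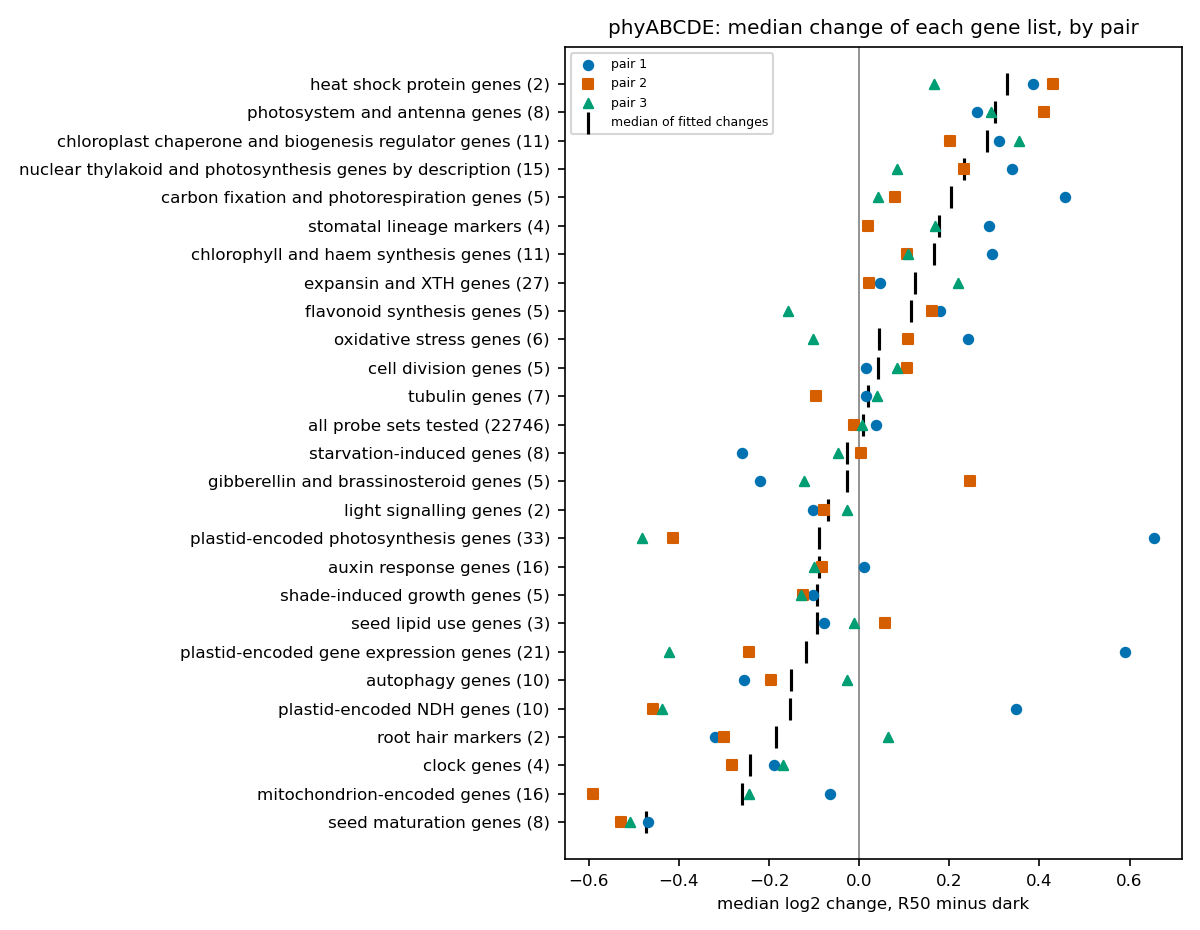
Median change of each gene list in phyABCDE (horizontal axis, log2, R50 minus dark), as the median of the fitted changes and within each replicate pair, with the number of measured probe sets in brackets. The 3 plastid-encoded lists lie above 0 in pair 1 and below 0 in pairs 2 and 3, while the seed maturation and the photosystem lists keep their side in all 3 pairs.

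The list of shade-induced growth genes, some of which PIF factors raise in darkness and shade, gave no call in phyABCDE. IAA29, an auxin response repressor, read 6.22, 6.70 and 6.69 under R50, against 6.73, 6.91 and 7.01 in darkness. The R50 arrays lay just below the dark ones, and the change was -0.35 ± 0.17 (limma, adjusted p = 0.876), against -0.55 in phyABDE and -2.89 in wild type. HAT2, a homeodomain factor of shade growth, had -0.15 and FHL, which carries phytochrome A into the nucleus, 0.10. The list's median was -0.09 in phyABCDE, -0.33 in phyABDE and -1.95 in wild type, where all 5 members fell (13.8% of all probe sets). All 5 responded more positively in phyABCDE than in wild type (8.90% of all), with a median difference of 2.06.

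Other groups showed no call in either fit. Of 2 light signalling genes measured (median -0.07), HYH, a bZIP factor related to HY5, had 0.22 in phyABCDE and 2.05 in wild type. Among 4 clock genes GI, GIGANTEA, was lower in each pair (-0.36, adjusted p = 0.753), and the list's median was -0.24, against -0.07 in wild type. All 10 autophagy genes, most of the ATG8 family that tags membranes for degradation, were negative, 5 of them in each pair (12.1% of all probe sets), with a median of -0.15, and APG8H and APG8A read -0.35 and -0.33. Of 27 expansin and XTH genes, which loosen and remodel the cell wall, 19 were positive, with a median of 0.12. XTH19 read 10.34, 10.18 and 10.48 under R50, against 9.69, 9.83 and 9.83 in darkness. Those groups did not overlap, and its change of 0.55 ± 0.19 (adjusted p = 0.753) stood against -1.72 in wild type (adjusted p = 3.05e-06). XTH32 had 0.54, and the root hair expansin EXPA7 -0.53. Both root hair markers together had a median of -0.18, and the 4 stomatal lineage markers 0.18.

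Several lists sat near the median of all probe sets. The medians were 0.02 for 7 tubulin genes, 0.04 for 6 genes of oxidative stress and 0.04 for 5 of cell division. They were -0.03 for 8 starvation-induced genes and -0.03 for 5 gibberellin and brassinosteroid genes. Auxin response genes (16) had -0.09, with YUC4, an auxin synthesis enzyme, at -0.37 and GH3.1, an auxin-conjugating enzyme, at -0.33. Flavonoid genes (5) had 0.11, with the flavonol glycosyltransferases UGT78D1 at 0.44 and UGT78D2 at 0.23. Seed lipid use (3) had -0.09, with ICL, isocitrate lyase of the glyoxylate cycle, at -0.06. Of 2 heat shock genes (median 0.33), the small heat shock protein ATHSP22.0 had 0.54 in phyABCDE and fell in wild type (-1.57, adjusted p = 4.91e-06).

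The probe sets that respond in wild type were then followed in phyABCDE. Of the 3115 that rose in wild type (13.7%), 2118 had a positive change in phyABCDE (68.0%). The share was 49.6% among those not called in wild type and 52.2% over all probe sets. For the risers it was 65.8%, 59.2% and 61.1% in pairs 1, 2 and 3, against 56.6%, 45.7% and 48.2% of those not called. The median change was 0.08, against 0.84 in wild type. Of the 3130 that fell in wild type (13.8%), 1569 were negative in phyABCDE (50.1%, against 47.8% of all probe sets). Their median was 0.00, against -0.77 in wild type. By pair the share was 55.1%, 48.5% and 43.0%, against 43.7%, 51.7% and 48.8% of all probe sets, so it was above that of all probe sets in pair 1 only. In phyABDE 75.7% of the risers and 71.2% of the fallers had the wild-type sign. Of all probe sets there, 51.9% were positive and 48.1% negative. The medians of the risers and fallers in phyABDE were 0.16 and -0.12. The risers of wild type thus leaned to the wild-type sign in both mutants, while the fallers did so in phyABDE and were evenly divided in phyABCDE. Whether the mutants differ in these shares was not tested.

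Larger wild-type responses were also taken alone. Of 295 probe sets that rose 4-fold or more in wild type, 72.2% were positive in phyABCDE (52.2% of all). Their median was 0.16, against 2.42 in wild type. Of 189 that fell by as much, 57.7% were negative (47.8% of all), with a median of -0.05 against -2.39. By pair the share was 62.4%, 63.0% and 36.0%, against 43.7%, 51.7% and 48.8% of all probe sets, so pair 3 went against the other 2. The paired fit called 24 of the 3115 wild-type risers higher and 3 lower in phyABCDE. Of the 3130 wild-type fallers it called 1 lower and 9 higher. Over all probe sets this fit called 0.215% higher and 0.431% lower. The 9 are near the share of all and the 24 above it, while the 3 and the 1 are below it.

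**Figure D5:**
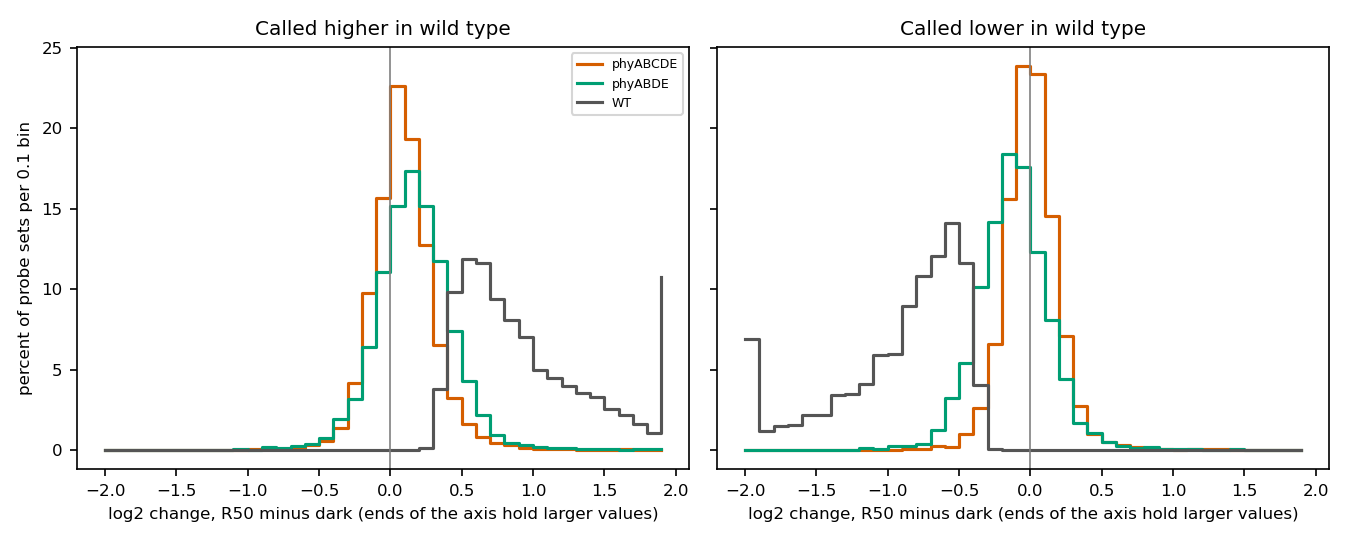
Distribution of the change under red light (horizontal axes, log2, in bins of 0.1, with larger values in the end bins) over the probe sets called higher (left) and lower (right) in wild type. Vertical axis: percent of those probe sets. The phyABCDE curve peaks just right of 0 on the left and at 0 on the right, and the phyABDE curve is shifted further towards wild type in both.

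Besides CaS, PIFI and IAA29, the largest wild-type changes of genes with a symbol went with small values in phyABCDE. IQD24, an IQ-domain protein, rose by 3.83 in wild type and read 3.28, 3.52 and 3.42 under R50 in phyABCDE, against 3.65, 3.51 and 3.25 in darkness. The arrays overlap, and the change was -0.07 ± 0.14. THI2.2, a thionin, had -0.16 against 3.55 in wild type, MSRB6, a methionine sulfoxide reductase, -0.12 against 2.47, and YAB5, a YABBY factor of leaf polarity, 0.24 against 2.40. On the other side TUB1, a beta-tubulin, had 0.02 against -3.20, GH9B8, a glycosyl hydrolase of the cell wall, 0.20 against -2.86, and the pectin methylesterases PME61 and ATPMEPCRD -0.17 and -0.14 against -2.96 and -2.80. Each of these differed from wild type in its response (adjusted p from 3.92e-10 for IQD24 to 0.0014 for PME61).

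Finally, the 33 probe sets called in phyABDE all had the same sign in phyABCDE, 29 higher and 4 lower. Their median was 0.43 in phyABCDE and 0.95 in phyABDE for those that rose, and -0.25 and -0.86 for those that fell. None differed between the mutants at the adjusted threshold, and 19 did at an unadjusted p under 0.05, against 899 of all 22746 probe sets. The 33 were chosen for their phyABDE change, and the same phyABDE arrays enter the difference. Smaller changes in phyABCDE and small p-values of the difference are therefore favoured by the choice. Of the 33, AT1G80130 had the largest rise among those with 1 gene, 2.46 in phyABDE. It read 6.36, 5.72 and 6.26 under R50 in phyABCDE, against 5.55, 5.14 and 5.38 in darkness. The phyABCDE arrays did not overlap, and the change was 0.76 (adjusted p = 0.846 unpaired and 0.0252 in the paired fit). AT2G43550 had 0.35 against 1.76, AT5G38980 0.47 against 1.54 and AT1G52000 0.43 against 1.41 in phyABDE. COR27, a cold-regulated gene with a part in the clock, had -0.51 in phyABCDE (adjusted p = 0.876) and fell by 1.32 in phyABDE (adjusted p = 0.0347).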

How the data were processed

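ATH1 arrays were hybridised to RNA of 22 samples. The deposited values are normalized linear intensities of probe sets. RMA, GCOS and limma appear, with no version, in the submitters' processing notes. Array medians lay between 40.21 and 44.88, and no further normalization was applied. Of 22810 probe sets, 64 controls were dropped. Of the rest 13513 have 1 gene in GEO's platform annotation, 503 several and 8730 none, and 13436 of the first matched RefSeq (TAIR10.1, names only). The number of arrays limits the precision.

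Log2 intensities were fitted with limma 3.58.1 in R 4.3.3 (lmFit, eBayes, 8 group means and a kit term, 13 residual degrees of freedom) and tested on simulated data. Per the series text the One-cycle kit was used for 5 arrays (both R50 arrays of wild type and its dark replicates 2, 3 and 4) and the 3' IVT Express kit for 17. The sample labels name the second kit for all. Figures used Python 3.11.15 and matplotlib 3.10.9.

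Pairing was judged from the correlations of deviations, which were 0.33, 0.12 and 0.25 for equal replicate numbers of R50 and dark phyABCDE arrays. Unequal numbers gave -0.25 to 0.04. Deviations from a group mean cancel within the group, so positive values for equal numbers push the unequal ones down. The unequal values are therefore no separate support for the pairing. The blocked fits of 6 and of 12 arrays were added after the planned block over 16 arrays had been seen to give no call. The 12-array fit came after the 6-array count as well. Alternatives were the arrays entered, kit term, array weights, an offset, a filter on dim probe sets, quantile normalization, a robust prior, probe sets with 1 gene and leaving out each array.

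The members, the comparisons and the 26 gene lists were chosen with earlier results of these data known, and 2 lists were added later. A gene of a list counts as measured only where a probe set names it. That held, for example, for 5 of 29 shade-induced growth genes, 2 of 55 light signalling genes and 2 of 37 heat shock protein genes. Symbols that matched a list by a name clash were dropped, 1 of them (in the flavonoid list) after its value had been seen. Named genes were all calls, the 8 smallest p each way among non-overlapping probe sets with 1 gene, 3 per list, the 6 largest wild-type changes each way with a symbol and the 8 largest phyABDE ones, of which only part is printed. Others are given as members of a described list or were chosen after their values were seen.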

Additional observations from a re-analysis of the deposited data

Results flagged for a closer look

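The response to red light differed between phyABCDE and wild type at 3906 probe sets in limma's test of the difference itself, and the following named genes are among them. The values are the log2 change in phyABCDE minus that in wild type, so a positive one means that phyABCDE responded more positively. Both called and uncalled changes of phyABCDE are included, and no cause was tested. Wild-type red-light arrays carry a different kit from the mutant arrays per the series text, and the wild-type response rests on arrays of 1 kit.

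Genes that fell in wild type gave the larger positive differences. OLEO3 had 5.01, TUB1 3.22, GH9B8 3.06, PME61 2.79, ATPMEPCRD 2.66 and IAA29 2.54. Among loci without a name, AT2G37670 had 3.29, AT2G37870 2.65, AT5G53710 2.64, AT1G52000 1.73, AT3G61490 1.71 and AT4G39830 1.54. Smaller ones were AT1G19970 at 0.93 and AT1G19690 at 0.61, whose wild-type changes did not pass.

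Genes that rose in wild type gave negative differences. AT5G38980 had -4.29, IQD24 -3.90, THI2.2 -3.71, AT2G43550 -2.94, MSRB6 -2.59, AT5G55450 -2.50, YAB5 -2.16, PIFI -1.85 and CaS -1.64. The mitochondrial gene nad9 had -1.07, PYE, an iron-deficiency factor, -0.90 and AT5G18770 -0.62, and the wild-type changes of these last 3 did not pass.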

How the results depend on the processing

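No result changed direction where it was called. The count of 2 calls for red light against dark in phyABCDE was 0 with only the 6 compared arrays, 0 with an offset of 16, 1 with array weights and 1 with only probe sets of 1 gene. With the replicate block it was 0 over 16 mutant arrays, 147 over the 6 compared arrays and 60 over 12 arrays. Leaving out any 1 of the 6 arrays from the unpaired fit gave 0 to 1, and leaving out pair 1, 2 or 3 from the 6-array block gave 28, 287 and 193. Under the block of 12 arrays the difference from phyABDE had 2 calls, and with probe sets of 1 gene the difference from wild type had 1923.

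Among lists, the photosystem median ran from 0.27 to 0.40 and the seed maturation median from -0.65 to -0.40 over the sets that leave out an array or pair (-0.57, -0.44 and -0.53 for the seed genes with the block and without pair 1, 2 or 3). The shade median was -0.046 with array weights, -0.12 with the dim filter, -0.11 with quantile normalization, -0.17 to -0.021 with arrays left out, and -0.14, -0.077 and -0.065 with the block and without pair 1, 2 or 3. The wild-type risers had the wild-type sign in 62.5% to 68.6% (62.7% with the block and without pair 1) and the fallers in 43.6% to 55.7% of cases. The block changed no other median or share beyond the spread between pairs. Of the other recomputed values 3301 stayed on their side, 81 passed the test only under an alternative, 18 no longer passed and 25 moved; the causes were not tested. With 2 residual degrees of freedom the paired fit of 6 arrays leans on the spread of all probe sets, and signal near background limits low levels.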

Other observations

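After 2 h of red light 4 probe sets were called in phyABCDE against the same dark arrays (limma, 0.0176% of those tested), and only 1 without dark replicate 1 or dark replicate 2. Beside AT5G53710 these were 3 probe sets that are unnamed here. The first had 1.09 after 2 h and 0.45 under R50, and the next had 1.08 after 2 h and 0.61 under R50. The last had -1.20 after 2 h and -0.87 under R50, and was the only 1 of the 3 to pass the 6-array paired fit of R50 (adjusted p = 0.0182). The R50 and 2 h comparisons share the dark arrays.

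Some genes that separated the R50 and dark arrays of phyABCDE belong to no list of the report. PYE, a regulator of the iron-deficiency response, read 5.03, 4.85 and 5.17 under R50, against 5.54, 5.57 and 5.42 in darkness. The groups did not overlap (10.3% of probe sets do not), and the change was -0.49 ± 0.14 (limma, adjusted p = 0.651), against 0.08 in phyABDE and 0.40 in wild type. AT1G19690 read 6.09, 6.07 and 6.12 under R50, against 5.29, 5.41 and 5.53 in darkness. Its change was 0.68 ± 0.13 (adjusted p = 0.203 unpaired and 0.0354 in the 6-array paired fit), against 0.28 in phyABDE and 0.07 in wild type. AT1G08170 had -0.72 (paired adjusted p = 0.0371), with levels of 4.86, 4.90 and 4.45 under R50, against 5.67, 5.37 and 5.32 in darkness.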
